A study of Homo sapiens with 18 samples.

Results

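The 8 genes encoding the subunits of condensin I and condensin II were followed across 18 HAP1 RNA-seq libraries. The members were taken by name and matched by Ensembl identifier, and all 8 were found among the 20329 genes of the count files. HAP1 is a near-haploid human line that grows attached, derived from the chronic myeloid leukaemia line KBM-7. The 6 groups held 3 libraries each: wild-type HAP1 in set A (control A), the WAPL knockout clone WaplKO_3.3 (ΔWAPL 3.3), an SCC4 knockout (SCC4KO, ΔSCC4), the double knockout DKO_3.3, in which SCC4 was knocked out in ΔWAPL cells (ΔWAPL 3.3/ΔSCC4), wild-type HAP1 in set B (control B), and a further WAPL knockout clone, WaplKO_1.14 (ΔWAPL 1.14). The knockouts were made with CRISPR, by insertion of a blasticidin (WAPL) or puromycin (SCC4) resistance cassette, and no group received another treatment. Each WAPL knockout group is 1 clone, and a number of ΔSCC4 or double knockout clones is not given in the sources used here. The labels do not say that replicates came from separate cultures, so p-values measure the spread between these libraries only, which may be technical.

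Condensins are ring-shaped complexes that compact chromosomes in mitosis. SMC2 and SMC4 are the ATPase arms of both complexes. Condensin I adds the kleisin NCAPH and the HEAT-repeat subunits NCAPD2 and NCAPG, while condensin II adds NCAPH2, NCAPD3 and NCAPG2. Condensin II is nuclear throughout the cell cycle, and condensin I gains access to chromosomes after nuclear envelope breakdown. They are relatives of cohesin, which WAPL releases from DNA and which the SCC2/SCC4 complex loads. The comparisons ask whether the mRNA of the condensin subunits differed when cohesin release, cohesin loading or both were lost.

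Total counts on genes ranged from 10007646 to 20711127 per library. WAPL mRNA lay between 38.0 and 50.2 CPM (counts scaled to library size and TMM-normalized) in the 9 WAPL knockout libraries and between 68.0 and 131.1 CPM in the other 9. MAU2, the gene of SCC4, lay between 0.509 and 1.04 CPM in the 6 libraries lacking SCC4 and between 52.1 and 72.7 CPM elsewhere, so the labels and the targeted genes matched in all 18 libraries. Markers of the parental blood lineage were at or near 0, with SPI1 and MPO without a read and the sum of 7 markers at no more than 0.553 CPM. Of the epithelial markers, CDH1 stayed at or below 0.205 CPM and EPCAM at or below 1.76 CPM, while KRT8 ranged from 1.8 to 51.6 CPM. Of the fibroblast markers, COL1A2 stayed at or below 0.0672 CPM, DCN at or below 0.065 CPM, and LUM had no read. VIM and KRT18 were expressed in every library. Control B replicate 2 stood apart from the others in genes of low GC content, as described with the results it touches.

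The genes lie on 8 chromosomes (GRCh37, the build hg19 of the submitters' processing notes). SMC2 is at chr9:106856541-106903700 on the plus strand and SMC4 at chr3:160117062-160152742 on the plus strand. Of the condensin I genes, NCAPD2 is at chr12:6602522-6641121 (plus), NCAPG at chr4:17812602-17846488 (plus) and NCAPH at chr2:97001504-97042829 (plus). Of the condensin II genes, NCAPD3 is at chr11:134020008-134095398 (minus), NCAPG2 at chr7:158423861-158497495 (minus) and NCAPH2 at chr22:50946653-50963209 (plus). Exons of SMC4, NCAPD2, NCAPG, NCAPD3 and NCAPH2 overlap protein-coding genes on the opposite strand (IFT80 and TRIM59, MRPL51, LCORL, JAM3 and VPS26B, and SCO2). The libraries were strand-specific, but the strand setting of the counting is not given in the sources used here, so a share of such reads cannot be assigned with certainty. Canonical transcripts have a GC content of 37.37% for SMC2, 36.61% for SMC4 and 38.7% for NCAPG, below the first quartile of all genes (41.8%). NCAPG2 (43.96%), NCAPH (46.12%), NCAPD3 (47.27%) and NCAPD2 (51.59%) lie nearer the median of 48.5%, and NCAPH2 (61.31%) lies above the third quartile of 57.1%.

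Promoters are shown for the members whose mRNA passed a test (NCAPD2, NCAPD3 and NCAPG2) and for the other members carrying the CHR letters (SMC4 and NCAPG), since genes with a mitotic peak often carry a cell cycle genes homology region (CHR). The sequences are the 250 bases before the start site, from RefSeq on GRCh38.p14, 5′ to 3′ on the gene's strand, without transcribed bases. Capitals mark every match on either strand to one of these motifs. The CHR was searched as TTTGAA and, in its other spelling, as TTCGAA. The CCAAT box was searched by its name's letters. The E2F site was searched as GCGCGAAA and with variants of the core spelled GCGGGAAA and, one base upstream of the latter and overlapping it, GGCGGGAA. A match on the reverse strand appears as its reverse complement. 
NCAPD2, chr12:6493852-6494101, plus: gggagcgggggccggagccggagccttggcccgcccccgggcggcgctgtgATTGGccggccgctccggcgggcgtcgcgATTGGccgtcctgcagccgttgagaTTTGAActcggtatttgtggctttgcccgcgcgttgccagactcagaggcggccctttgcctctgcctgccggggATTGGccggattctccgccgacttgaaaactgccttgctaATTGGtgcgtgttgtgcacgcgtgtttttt
NCAPG, chr4:17810729-17810978, plus: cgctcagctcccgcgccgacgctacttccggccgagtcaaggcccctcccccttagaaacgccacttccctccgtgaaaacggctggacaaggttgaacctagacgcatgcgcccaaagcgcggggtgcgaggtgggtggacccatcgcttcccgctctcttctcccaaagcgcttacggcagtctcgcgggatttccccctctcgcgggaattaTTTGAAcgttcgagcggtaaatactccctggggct
SMC4, upstream one of its RefSeq start sites, chr3:160399400-160399649, plus: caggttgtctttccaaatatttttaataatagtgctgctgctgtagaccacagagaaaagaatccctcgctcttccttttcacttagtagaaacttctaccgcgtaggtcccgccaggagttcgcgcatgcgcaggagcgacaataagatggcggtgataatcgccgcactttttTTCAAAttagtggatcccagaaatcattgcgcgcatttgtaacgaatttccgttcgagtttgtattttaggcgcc
NCAPD3, downstream one of its RefSeq start sites, chr11:134223968-134224217, minus: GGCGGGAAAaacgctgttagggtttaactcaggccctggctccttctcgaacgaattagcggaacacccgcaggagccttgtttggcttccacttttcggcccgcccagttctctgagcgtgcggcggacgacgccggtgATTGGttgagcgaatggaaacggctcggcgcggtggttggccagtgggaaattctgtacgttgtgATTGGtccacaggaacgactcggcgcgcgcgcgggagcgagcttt
NCAPG2, chr7:158704805-158705054, minus: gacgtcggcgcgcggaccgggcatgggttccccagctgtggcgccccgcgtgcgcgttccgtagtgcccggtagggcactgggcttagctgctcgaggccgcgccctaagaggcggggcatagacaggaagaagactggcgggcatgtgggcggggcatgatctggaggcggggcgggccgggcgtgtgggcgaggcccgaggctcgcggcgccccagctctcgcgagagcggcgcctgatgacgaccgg

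RefSeq promoters were matched for 7 of the 8 members, with 10 start sites. NCAPH2 had no entry in the table used. CHR letters occurred in the promoters of 3 members (SMC4, NCAPD2 and NCAPG), beginning 75, 145 and 35 bases before the start, and in 12.1% of the 21221 promoters of counted genes. CCAAT occurred in 3 members (NCAPD2, NCAPH and NCAPD3), with 4 matches in NCAPD2, and in 32.7% of those promoters. E2F letters occurred in NCAPD3 alone among the 7, where both matches lie in the same run, against 4.9% of promoters. NCAPG2 held none of the letters in this window. A match of letters is a description and not a binding site.

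All 8 members were well expressed. Their mean CPM lay above 77.4% (NCAPH2) to 98.5% (NCAPD2) of the 12976 genes kept over all libraries, and their lowest count in a library was 917. Between genes, levels are compared as CPM per kb of canonical transcript. In control A, NCAPD2 had the highest level, 141.8 ± 17.2 CPM per kb (SD, n = 3), followed by SMC4 with 92.5 ± 17.5, and the ranges of these 2 genes did not overlap. SMC2 (37.5 ± 3.9), NCAPG2 (37.1 ± 7.0), NCAPG (36.7 ± 5.1) and NCAPD3 (31.7 ± 1.4) followed, each overlapping its neighbour in this order. NCAPH2 stood at 25.8 ± 4.2, and NCAPH was lowest with 19.9 ± 1.1. NCAPH was also the lowest of the 8 in the other 5 groups, between 17.0 and 19.2 CPM per kb. NCAPD2 was the highest in 5 of 6 groups. In ΔWAPL 3.3 cells SMC4 (114.1 ± 17.5 CPM per kb) and NCAPD2 (105.0 ± 6.7) overlapped in range, as they did in ΔSCC4 cells (91.8 ± 12.5 and 117.5 ± 15.1).

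**Figure D1:**
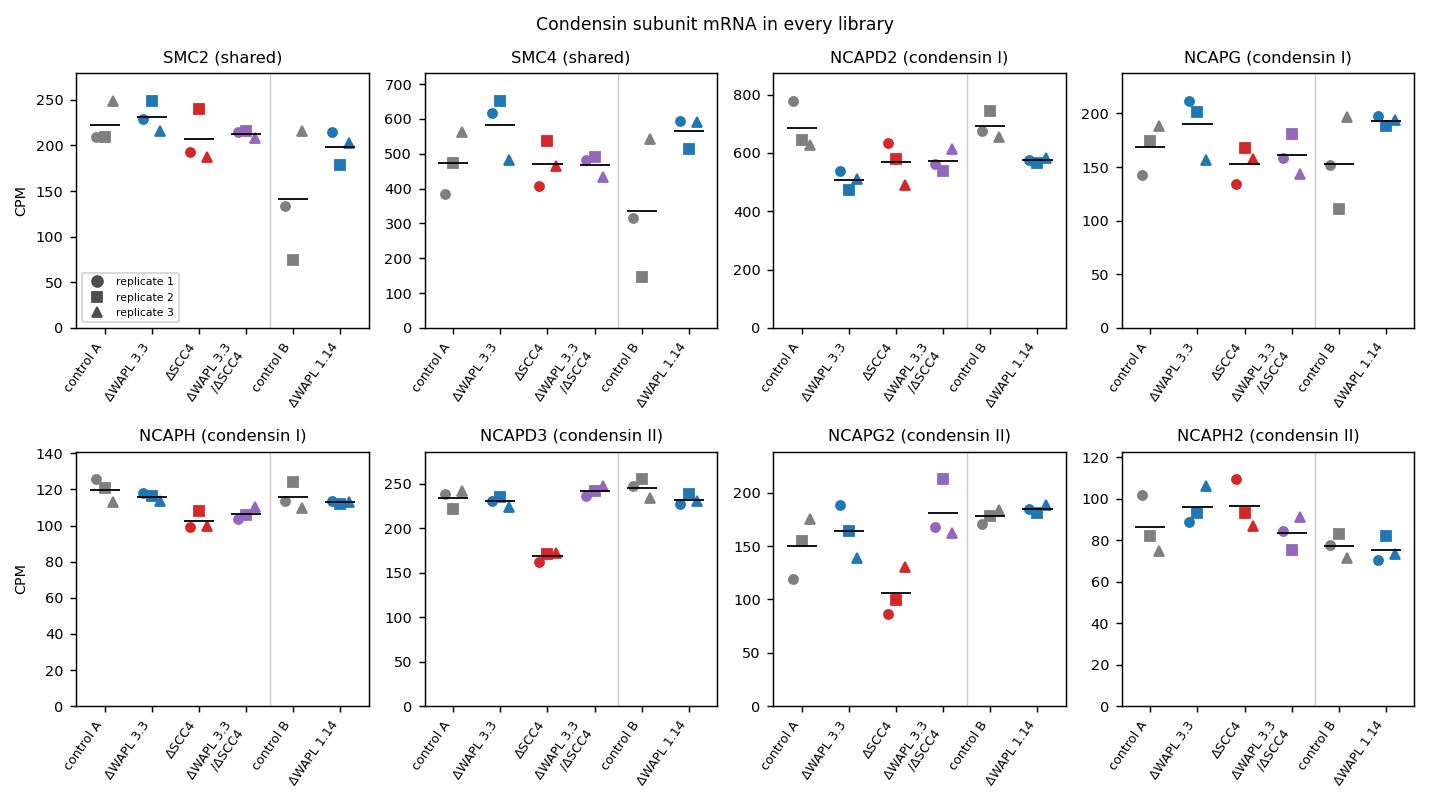
CPM (counts scaled to library size) of the 8 condensin genes in each of the 18 libraries, with 1 panel per gene, the 6 groups on the x axis, symbols for the replicate numbers and a bar at the group mean. NCAPD2 is lower in both WAPL knockout clones than in their controls, NCAPD3 is lowest in the 3 libraries lacking SCC4 alone, and SMC2 and SMC4 spread widest in control B.

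Within condensin I, NCAPD2 was lower in ΔWAPL cells of both clones, while NCAPG and NCAPH passed no test in these comparisons. NCAPD2 had 779.7, 644.8 and 628.0 CPM in control A and 538.0, 473.3 and 509.0 CPM in ΔWAPL 3.3 cells. In set B it had 675.4, 744.0 and 653.5 CPM in control B and 574.1, 566.7 and 582.1 CPM in ΔWAPL 1.14 cells. In both sets every ΔWAPL library lay below every control, which held for no other member and for 23.7% of all genes in set A and 42.3% in set B (in either direction). Over both clones, with the set as covariate, the log2 fold change was -0.35 (SE 0.069, 95% interval -0.50 to -0.20), a fold of 0.784, with an adjusted p of 0.00215 in edgeR's quasi-likelihood test. An exact permutation test of the log2 CPM of this gene within sets gave p = 0.005 (two-sided, the smallest its 400 arrangements allow, 8 members tested). Markers of other cell types moved in the same comparison. Of 3 epithelial markers tested 2 were lower, KRT8 (-1.617, adjusted p = 7.01e-06, edgeR) and EPCAM (-2.718, adjusted p = 5.34e-05). EPCAM was near the floor, between 0.0603 and 1.76 CPM over all libraries. Of 2 fibroblast markers tested 1 was lower, VIM (-0.42, adjusted p = 0.000335, edgeR). The summed epithelial markers were 57.9 to 81.9 CPM in control A against 60.0 to 66.0 in clone 3.3, and 56.8 to 72.3 in control B against 41.6 to 47.6 in clone 1.14. ABL1, part of the parental fusion, was lower as well (-0.893, adjusted p = 1.77e-05). The part of these shifts in the result for NCAPD2 was not tested. In bulk RNA, a shift in the share of cells at a stage of the cycle and a change of RNA per cell cannot be told apart.

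By clone, the log2 fold change of NCAPD2 was -0.455 (SE 0.138, adjusted p = 0.0605, edgeR) in ΔWAPL 3.3 cells and -0.27 (SE 0.061, adjusted p = 0.0205, edgeR) in ΔWAPL 1.14 cells. The difference between the clones' effects was -0.165 (SE 0.135, 95% interval -0.457 to 0.126, adjusted p = 0.769, edgeR). A difference between the clones was thus not detected, and the interval leaves room for one in either direction. The call over both clones passed in all 19 alternatives run, with adjusted p-values from 6.1e-05 to 0.00885. In clone 3.3 alone 0 of 8 members passed in edgeR, with 1 at an unadjusted p under 0.05 and 1 (NCAPD2, adjusted p = 0.0493) in DESeq2. The adjusted p for clone 3.3 ranged from 0.00706 to 0.324 over 13 alternatives and that for clone 1.14 from 0.00687 to 0.1. In clone 1.14 the call was lost without control B replicate 1 (adjusted p = 0.0544) and without any single ΔWAPL 1.14 library (0.0656 to 0.0786).

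NCAPG and NCAPH did not pass in either clone. NCAPG had 142.8, 174.0 and 188.0 CPM in control A against 212.1, 201.6 and 156.8 in ΔWAPL 3.3 cells, and 151.7, 110.5 and 196.5 CPM in control B against 197.5, 188.7 and 194.1 in ΔWAPL 1.14 cells. The groups overlapped in both sets. Over both clones NCAPG stood at 0.26 on the log2 scale (SE 0.124, adjusted p = 0.175, edgeR). NCAPH, which closes the condensin I ring, differed least among the condensin I genes, with -0.04 over both clones (95% interval -0.17 to 0.08) and a range of 99.4 to 125.9 CPM over all 18 libraries.

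The shared subunits SMC2 and SMC4 had higher group means in ΔWAPL cells but did not pass in edgeR over both clones. SMC4 had 384.0, 473.1 and 562.9 CPM in control A and 615.7, 653.0 and 482.8 CPM in ΔWAPL 3.3 cells, which overlap. In set B it had 316.6, 146.5 and 541.9 CPM in control B and 593.6, 514.2 and 589.9 CPM in ΔWAPL 1.14 cells, where only control B replicate 3 reached the knockout range. Over both clones the log2 fold change of SMC4 was 0.53 (SE 0.227, 95% interval 0.04 to 1.02, adjusted p = 0.131, edgeR), and the exact permutation test within sets gave p = 0.035 for it, not adjusted for the 8 members tested. The log2 fold change of SMC2 was 0.27 (SE 0.187, 95% interval -0.13 to 0.67, adjusted p = 0.342). SMC2 had 133.7, 73.9 and 215.6 CPM in control B against 214.9, 178.0 and 203.0 in ΔWAPL 1.14 cells.

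The shared subunits spread most in the control B libraries, which also differed in genes of low GC content. In control B replicate 2 SMC4 deviated by -1.66 and SMC2 by -1.41 from their log2 means over 18 libraries. The 755 genes with a GC content of 36 to 38% had a median deviation of -0.512 and a lower quartile of -0.829 in that library, so both members lay below the lower quartile. NCAPG, with a deviation of -0.60, also lay below the lower quartile of the genes nearest to it in GC content (-0.528). NCAPD2, NCAPH, NCAPD3 and NCAPG2 were not low there. Without control B replicate 2, SMC4 stood at 0.40 in clone 1.14 (adjusted p = 0.153) and SMC2 at 0.18 (adjusted p = 0.473). Without control B replicate 3, the control B library with the highest SMC2 and SMC4, 4 members passed in clone 1.14: SMC2 (log2 fold change 0.93, adjusted p = 0.0187), SMC4 (1.28, adjusted p = 0.0142) and NCAPG (0.55, adjusted p = 0.0136) were higher and NCAPD2 was lower. The share of all genes past the threshold in that fit is not given here (20.1% with all libraries). The count of 4 can therefore not be set against it. When a per-library trend against GC content was taken out as an offset, SMC4 stood at 0.34 over both clones (adjusted p = 0.112) and SMC2 at 0.09 (adjusted p = 0.656), while NCAPD2 stayed past the threshold with -0.26 (adjusted p = 0.00125). With control B replicate 3 left out, SMC4 also passed over both clones (0.728, adjusted p = 0.0314).

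**Figure D2:**
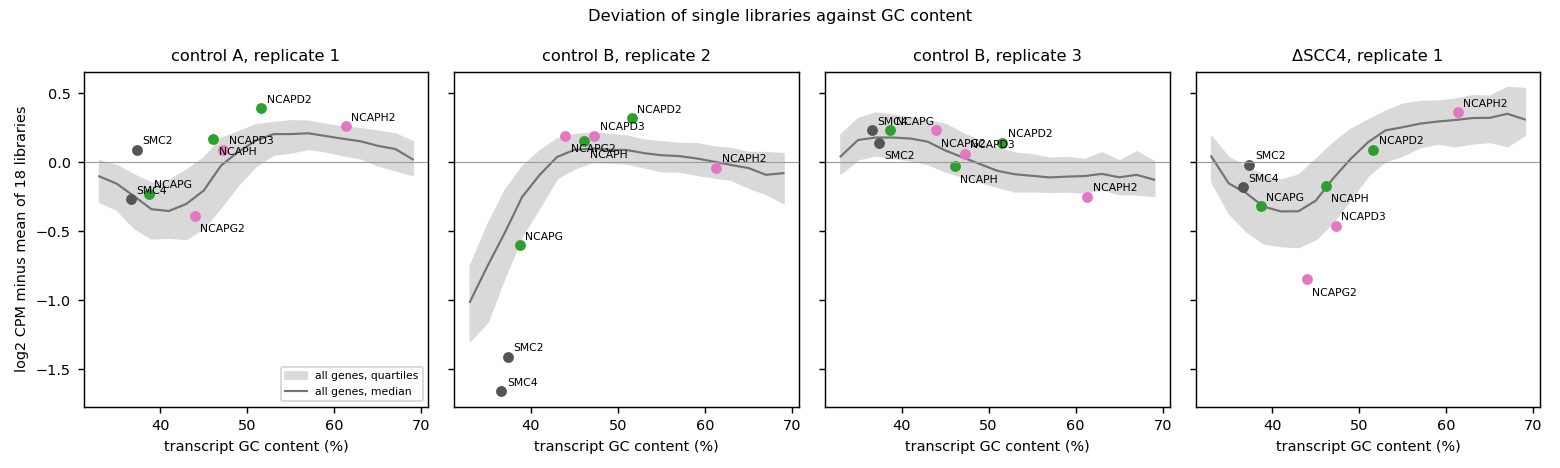
Log2 CPM of single libraries minus the mean of 18 libraries (y axis) against transcript GC content in percent (x axis), with the median and quartiles of all genes in bins of 2 percentage points in grey and the 8 members as points coloured by complex. In control B replicate 2 SMC2 and SMC4 lie at -1.41 and -1.66, below the lower quartile of genes of their GC content, and in ΔSCC4 replicate 1 NCAPG2 and NCAPD3 lie below it.

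The condensin II subunits passed no test in ΔWAPL cells. NCAPD3 had 237.9, 221.4 and 241.1 CPM in control A and 230.4, 235.4 and 224.2 CPM in ΔWAPL 3.3 cells. Over both clones NCAPD3 stood at -0.05 on the log2 scale (95% interval -0.17 to 0.06). NCAPG2 stood at 0.09 (95% interval -0.11 to 0.29) and NCAPH2 at 0.06 (95% interval -0.13 to 0.25). Over both clones 1 of 8 members was past the threshold, against 17.7% of all genes tested. In ΔWAPL 3.3 cells it was 0 of 8 against 8.07%, in ΔWAPL 1.14 cells 1 of 8 against 20.1%, and for the difference between the clones 0 of 8 against 2.65%, with 0 at an unadjusted p under 0.05 and 0 in DESeq2. The 2 control sets differed in 0 of 8 members (0 at an unadjusted p under 0.05, 0 in DESeq2), against 0.64% of all genes. In each of these comparisons the members' share lay below that of all genes.

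In ΔSCC4 cells NCAPD3, a HEAT-repeat subunit of condensin II, was lower. It had 161.7, 170.7 and 172.5 CPM in ΔSCC4 libraries and at least 221.4 CPM in each of the other 15 libraries, so the ΔSCC4 libraries did not overlap any other group. Against control A, NCAPD3 and NCAPH were the 2 members without overlap, against 26.9% of all genes. Against control A the log2 fold change was -0.49 (SE 0.114, 95% interval -0.74 to -0.23), a fold of 0.714, with an adjusted p of 0.0221 in edgeR and 0.0084 in DESeq2. NCAPG2, its partner HEAT-repeat subunit, had 86.8, 99.7 and 130.6 CPM in ΔSCC4 cells against 119.4, 155.1 and 175.8 CPM in control A. The groups overlapped by ΔSCC4 replicate 3, and the log2 fold change of -0.52 (SE 0.187, 95% interval -0.93 to -0.10) did not pass (adjusted p = 0.123, edgeR). NCAPH2, the kleisin of condensin II, had 109.7, 93.4 and 86.8 CPM in ΔSCC4 cells and 101.8, 82.0 and 75.0 CPM in control A, a log2 fold change of 0.15 (SE 0.158, 95% interval -0.20 to 0.50), with overlap. ΔSCC4 replicate 1 and control A replicate 1 both had fewer counts on genes of low GC content (Spearman's rho of deviation with GC content 0.545 and 0.521 across 12772 genes, which are not independent replicates). With the GC-content offset and no block, NCAPG2 passed (-0.40, adjusted p = 0.0266) together with NCAPD3 (-0.415, adjusted p = 0.00567), against 20.7% of all genes.

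Among the markers, KRT8 was lower in ΔSCC4 cells (-1.606, adjusted p = 0.00189, edgeR), as 1 of 3 epithelial markers tested, with a summed epithelial level of 50.3 to 62.7 CPM against 57.9 to 81.9 CPM in control A. ABL1 was higher (1.274, adjusted p = 0.000282), and 0 of 2 fibroblast markers passed. The part of these shifts in the result for NCAPD3 was not tested.

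The replicate numbers of ΔSCC4 and control A met the criterion for pairing, since libraries with the same number deviated together, although for replicate 2 this was no closer (r = 0.115) than with another number (0.114). This pairing was taken from these same data and not from the labels, so p-values with the block may be too small. With the replicate number as a block, 6 of 8 members passed, against 46% of all genes tested. Without the block it was 1 of 8 against 9.49%. With the block, NCAPD2 (-0.285, adjusted p = 0.000758), NCAPG (-0.148, adjusted p = 0.0473), NCAPH (-0.24, adjusted p = 0.00633), NCAPD3 (-0.49, adjusted p = 3.78e-05) and NCAPG2 (-0.52, adjusted p = 5.61e-05) were lower and NCAPH2 (0.155, adjusted p = 0.0451) was higher. SMC2 (-0.12, adjusted p = 0.27) and SMC4 (-0.02, adjusted p = 0.866) did not pass. With the block and the GC-content offset together, 4 members passed, against 46% of all genes, and all 4 were lower: NCAPD2 (-0.30), NCAPH (-0.15), NCAPD3 (-0.415) and NCAPG2 (-0.40). NCAPH2 then stood at 0.02 (adjusted p = 0.812) and NCAPG at -0.075 (adjusted p = 0.208). Without the block, the call for NCAPD3 was lost when control A replicate 2 or 3 or ΔSCC4 replicate 1 or 2 was left out (adjusted p from 0.0559 to 0.109, log2 fold changes from -0.53 to -0.46).

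**Figure D3:**
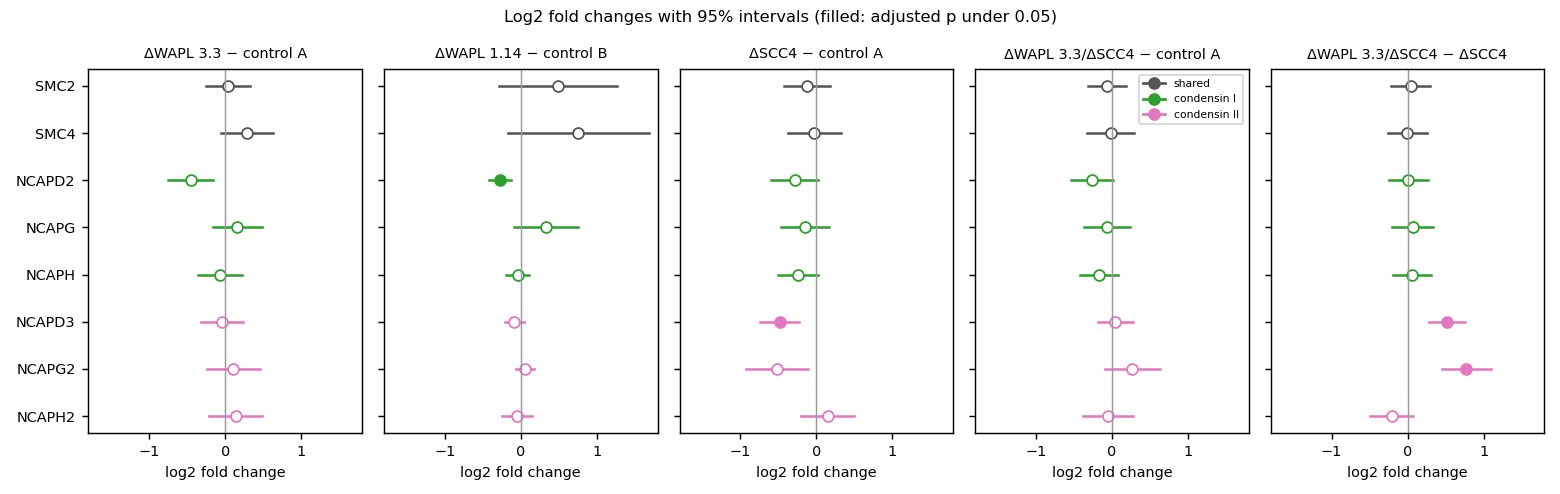
Log2 fold changes (x axis) with 95% intervals of the 8 members in 5 comparisons, coloured by complex, with filled points for an adjusted p under 0.05 in edgeR without a replicate block. NCAPD3 is lower in ΔSCC4 cells and NCAPD3 and NCAPG2 are higher in ΔWAPL 3.3/ΔSCC4 than in ΔSCC4 cells, while the intervals of SMC2 and SMC4 are widest against control B.

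In cells lacking both WAPL and SCC4, NCAPD3 lay near its level in control A (means of 241.4 and 233.5 CPM). The mean of NCAPG2 was higher than in control A (181.1 against 150.1 CPM), and the ranges overlapped. NCAPD3 had 235.7, 241.3 and 247.1 CPM in ΔWAPL 3.3/ΔSCC4 cells, and every one of these libraries lay above every ΔSCC4 library. The log2 fold change against ΔSCC4 was 0.52 (SE 0.111, 95% interval 0.28 to 0.75, adjusted p = 0.00233, edgeR), a fold of 1.43. NCAPG2 had 167.9, 213.1 and 162.4 CPM, again above all 3 ΔSCC4 libraries, with a log2 fold change of 0.77 (SE 0.153, 95% interval 0.452 to 1.096, adjusted p = 0.00123, edgeR), a fold of 1.71. These 2 of 8 members passed, against 27.3% of all genes, and both passed in all 13 alternatives run. They were also the 2 members without overlap in this comparison, against 41.2% of all genes. NCAPH2 was at -0.21 (SE 0.134, adjusted p = 0.255), and the condensin I and shared subunits lay between -0.004 and 0.07, with intervals reaching from -0.258 to 0.34. An epithelial keratin, KRT8, was higher by 4.165 on the log2 scale in the same comparison, and the sum of 4 epithelial markers was 107.0 to 131.0 CPM in the double knockout against 50.3 to 62.7 CPM in ΔSCC4 cells. The fibroblast markers VIM (-1.10, adjusted p = 2.26e-06, edgeR) and COL1A1 (1.357, adjusted p = 1.56e-06) moved in opposite directions, with a summed fibroblast level of 265.0 to 305.0 CPM against 516.0 to 591.0 CPM. BCR (-0.562, adjusted p = 0.00553) and ABL1 (-1.261, adjusted p = 2.29e-06) were lower. The part of these shifts in the condensin II values was not tested.

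Against control A the double knockout differed in 0 of 8 members in edgeR, with 0 at an unadjusted p under 0.05 and 0 in DESeq2, against 7.95% of all genes. NCAPD3 stood at 0.04 (SE 0.105, 95% interval -0.19 to 0.28) and NCAPG2 at 0.27 (SE 0.162, 95% interval -0.09 to 0.63). NCAPD2 had 562.2, 538.8 and 613.1 CPM, below all 3 control A libraries, and NCAPH had 103.4, 105.9 and 110.2 CPM, below 112.8, 121.0 and 125.9. They were the 2 of 8 members without overlap, against 23.0% of all genes. NCAPD2 had a log2 fold change of -0.265 (SE 0.124, adjusted p = 0.306). Side by side, NCAPD2 stood at -0.455 in ΔWAPL 3.3, -0.284 in ΔSCC4 and -0.265 in the double knockout against control A, comparisons which share their 3 control libraries. Against ΔWAPL 3.3 the double knockout also differed in 0 of 8 members in edgeR (1 at an unadjusted p under 0.05, SMC4, and 0 in DESeq2), against 10.6% of all genes. Without overlap were 4 of 8 members (SMC2 and NCAPH lower, NCAPD2 and NCAPD3 higher in the double knockout), against 27.8% of all genes. SMC4 stood at -0.32 there (SE 0.120, adjusted p = 0.117). Without ΔWAPL 3.3 replicate 3, SMC4 (-0.44, adjusted p = 0.0105) and NCAPG (-0.36, adjusted p = 0.0491) passed. For that fit the share of all genes is not given here.

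The difference in NCAPD3 between lines without and with WAPL was not the same in lines lacking SCC4 as in lines with it. By group mean, ΔSCC4 (168.3 CPM) lay below control A (233.5), ΔWAPL 3.3 (230.0) and the double knockout (241.4). ΔWAPL 3.3 is 1 clone, and the number of ΔSCC4 and double knockout clones is not given. Differences between lines and effects of the knockouts therefore cannot be told apart here. The interaction, which is the log2 fold change of WAPL loss in cells lacking SCC4 minus that in cells with SCC4, was 0.565 (SE 0.122, 95% interval 0.304 to 0.825, adjusted p = 0.00635, edgeR). It passed in all 19 alternatives, with adjusted p-values from 0.00038 to 0.0254. The interaction of NCAPG2 was 0.67 (SE 0.248, adjusted p = 0.102) and that of NCAPD2 0.47 (SE 0.167, adjusted p = 0.0912), and neither passed. In all, 1 of 8 members passed this test, against 11.3% of all genes. With the GC-content offset 4 members passed, against 25.5% of all genes, with NCAPD2 at 0.43 (adjusted p = 0.0132), NCAPD3 at 0.43 (adjusted p = 0.00351), NCAPG2 at 0.54 (adjusted p = 0.00919) and NCAPH2 at -0.25 (adjusted p = 0.0486).

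The ratios of the condensin I subunits to their condensin II counterparts, as CPM per kb within each library, are given as a description without a test. NCAPD2/NCAPD3 was 4.48 ± 0.515 in control A and 3.37 ± 0.262 in ΔWAPL 3.3 cells, 4.30 ± 0.138 in control B and 3.78 ± 0.132 in ΔWAPL 1.14 cells, and neither knockout range overlapped that of its controls. NCAPD2 alone was already without overlap in both sets, so the ratio is not a separate result. How often ratios of other gene pairs separate was not computed. The NCAPD2/NCAPD3 ratio was also taken in the other groups. It was 5.16 ± 0.825 in ΔSCC4 cells and 3.61 ± 0.191 in the double knockout (SD, n = 3). NCAPG/NCAPG2 was near 1 in control A (0.997 ± 0.0557), 1.30 ± 0.216 in ΔSCC4 cells and 0.787 ± 0.0415 in the double knockout. NCAPH/NCAPH2 was 0.778 ± 0.0812 in control A and 0.592 ± 0.0786 in ΔSCC4 cells. Relative to control A, the ratios in ΔSCC4 cells were thus higher for the NCAPG pair and lower for the NCAPH pair. Their highest and lowest libraries did not overlap those of control A for the NCAPH pair (0.502 to 0.640 against 0.684 to 0.832), and for the NCAPG pair ΔSCC4 replicate 3 (1.06) reached control A replicate 1 (1.06). The ratios carry no correction for GC content. With the GC-content offset, log2 fold changes in ΔSCC4 cells were -0.15 for NCAPH and 0.018 for NCAPH2, against -0.242 and 0.151 without it. For NCAPG and NCAPG2 they were -0.074 and -0.396, against -0.15 and -0.517.

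**Figure D4:**
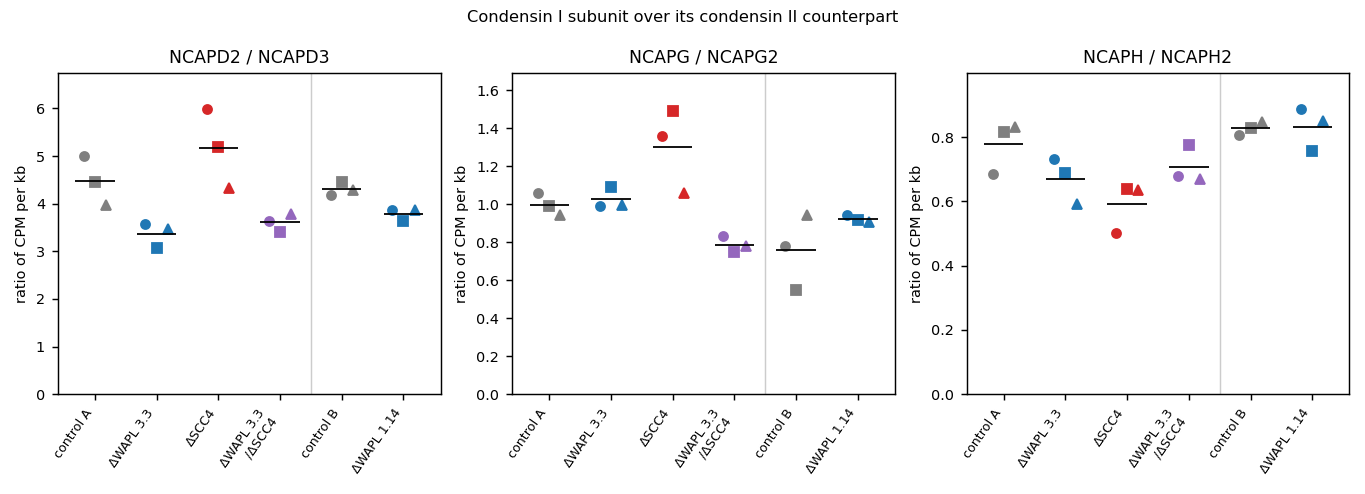
Ratio of CPM per kb (y axis, from 0) of each condensin I subunit to its condensin II counterpart in every library, by group (x axis), with symbols for the replicate numbers and a bar at the group mean. NCAPD2/NCAPD3 falls below the control range in both WAPL knockout clones, and NCAPG/NCAPG2 is lower in the double knockout than in the ΔSCC4 libraries.

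Averaged over the log2 CPM of its 3 specific subunits, condensin II lay at 6.90 ± 0.063 in ΔSCC4 cells and between 7.17 and 7.26 in the other 5 groups (SD, n = 3, a description). The subunits did not move together: against control A, the ΔSCC4 means of NCAPD3 and NCAPG2 were lower. That of NCAPH2 was higher (96.6 against 86.3 CPM). Condensin I lay at 7.90 ± 0.012 in control A and between 7.69 and 7.86 in the others. The shared subunits lay at 7.60 ± 0.860 in control B and between 8.28 and 8.51 in the others. Ordered by group mean, every pair of neighbouring groups overlapped in range for SMC2, SMC4, NCAPG, NCAPG2 and NCAPH2. For NCAPD3, of the 5 neighbouring pairs, ΔSCC4 alone was separated from its neighbour (168.3 ± 5.79 against 230.0 ± 5.62 CPM). For NCAPD2 the 2 control groups (691.0 ± 47.3 and 684.1 ± 83.2 CPM) were separated from ΔWAPL 1.14 (574.3 ± 7.74 CPM), and each of the lower 4 groups overlapped its neighbour in the order. ΔWAPL 3.3 (473.3 to 538.0 CPM), the lowest, overlapped neither ΔWAPL 1.14 (566.7 to 582.1 CPM) nor the double knockout (538.8 to 613.1 CPM). For NCAPH the double knockout (106.5 ± 3.46 CPM) and ΔSCC4 (102.4 ± 4.82 CPM) lay below ΔWAPL 1.14 (112.9 ± 0.684 CPM) without overlap. Groups of 3 libraries often separate in this way. The share of all genes without overlap ran from 19.5% (control B against control A) to 42.3% (ΔWAPL 1.14 against control B) where it was computed. It was not computed for other pairs across the sets, such as control A against ΔWAPL 1.14.

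Other genes of the pathway were read from lists chosen by name. Of 18 partners and regulators of condensin, such as the kinases and topoisomerase that act with it on mitotic chromosomes, 0 passed over both ΔWAPL clones in edgeR, with a median log2 fold change of -0.04. In ΔWAPL 1.14 cells 2 were lower and 0 higher, against 11.4% of all genes lower and 8.7% higher. The 2 were AURKB (-0.30, adjusted p = 0.0441, edgeR), the chromosomal passenger kinase, and KMT5A (-0.21, adjusted p = 0.0445), the histone H4 methyltransferase. In ΔWAPL 3.3 cells 0 passed, against 8.07% of all genes. In ΔSCC4 cells 0 passed, with a median of -0.09. In the double knockout against ΔWAPL 3.3 cells 3 of 18 were lower and 0 higher, against 4.55% of all genes lower and 6.05% higher, led by CDK1 (-0.50, adjusted p = 0.0074, edgeR), the mitotic kinase that activates condensin, and TOP2A (-0.47, adjusted p = 0.012), which decatenates DNA. Of 7 cohesin genes 1 was higher over both ΔWAPL clones (RAD21, the cohesin kleisin, 0.34, adjusted p = 0.0301) and 1 was higher in ΔSCC4 cells (STAG1, 0.69, adjusted p = 0.0108). Of 6 SMC5/6 genes 0 passed in either, with medians of 0.05 and -0.10. Over all genes 17.7% passed over both clones and 9.49% in ΔSCC4 cells. Across all genes tested, medians of the log2 fold change lay between -0.0186 and 0.0048 in each of the 10 comparisons.

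Beside the condensin II values stand those of S phase and G2/M genes. Of 14 S phase genes 3 were lower and 0 higher in ΔSCC4 cells, with a median of -0.36, led by CDC6 (-0.69, adjusted p = 0.00578, edgeR) and MCM4 (-0.51, adjusted p = 0.0116), both of which license replication origins. Over all genes 9.49% passed in that comparison. In the double knockout against ΔSCC4, 7 of 14 were higher and 0 lower, with a median of 0.34, against 13.7% of all genes higher and 13.6% lower. Of 22 G2/M genes 1 was lower in ΔSCC4 cells (BUB1, a spindle checkpoint kinase, -0.52, adjusted p = 0.0482), with a median of -0.21, and 2 were higher and 1 lower in the double knockout against ΔSCC4, with a median of 0.04. Over both ΔWAPL clones, where NCAPD2 was lower, 17.7% of all genes passed. Among the 22 G2/M genes 1 was higher (CKAP2, 0.49, adjusted p = 0.0107, edgeR) and 1 lower (KIF20A, -0.21, adjusted p = 0.0288), with a median of 0.075. Among the 14 S phase genes 1 was lower (MCM6, -0.30, adjusted p = 0.014) and 0 higher, with a median of -0.009. The part of the cell cycle in the condensin results was not tested.

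The genes most like each member across the 18 libraries, by Pearson r of log2 CPM among 11563 genes, are given as a description. The 18 points include replicates of the same groups, and the libraries differ in depth and in base composition. For SMC4 they were EXOC5, PHF3 and DEPDC1 (r = 0.99, 0.99 and 0.987), with transcripts of 34.83, 36.32 and 34.57% GC. For SMC2 they were ESF1, LIG4 and ANKRD12 (r between 0.979 and 0.981), with 35.22 to 35.57% GC. For NCAPG they were PSIP1, UPF3B and PHTF2 (r between 0.964 and 0.982). Within groups, after removal of the group means, r stayed between 0.97 and 0.992 for these 9 genes.

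For NCAPD2 the likest genes were HASPIN, TBC1D14 and INPP5B (r = 0.923, 0.888 and 0.88), and for NCAPH RACGAP1, KDM1A and PSME3IP1 (r = 0.924, 0.869 and 0.864). For NCAPG2 they were ERO1A, PIK3R4 and NEMP1 (r between 0.976 and 0.979), and for NCAPH2 TRAPPC2L, CHMP1A and BRMS1 (r between 0.962 and 0.965), the latter with 57.47 to 60.85% GC. For NCAPD3 they were WNT5A, SULF2 and NAP1L2 (r = 0.952, 0.942 and 0.94), whose r within groups was only 0.155, 0.166 and -0.076, so the likeness lay in differences between group means. None of the 24 nearest genes was another condensin subunit. The highest r between members was that of SMC2 and SMC4 (0.932), followed by SMC4 and NCAPG (0.87) and NCAPD3 and NCAPG2 (0.808, within groups 0.204).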

How the data were processed

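RNA was measured in 18 HAP1 libraries, 3 per group, made with a stranded polyA kit. Per the submitters' processing notes, the authors aligned reads with TopHat2 2.0.9 to hg19 and counted them with HTSeq; the notes also name DESeq2 1.10.1. The deposited values are raw counts per Ensembl gene, 20329 genes per library, of which 96.6% matched a symbol. Reads that named no gene (20.34 to 22.62% per library) stayed out of library sizes and tests. Groups came from the labels; knockouts were placed in set A or B by the run names the deposited data carry.

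Each comparison was fitted with edgeR 4.0.16 (R 4.3.3; TMM, default expression filter, quasi-likelihood test), with Benjamini-Hochberg adjustment over all genes and a threshold of 0.05. CPM were TMM-normalized over 18 libraries, and log2 CPM used a prior count of 2. Levels per kb used the canonical transcript. Sensitivity was examined with DESeq2 1.42.0, other size factors, other filters (none, or at least 10 counts in every library), a replicate block, 1 fit over 18 libraries and 78 fits leaving out a library. A GC-content offset (lowess span 0.3) was added after seeing the data. The fits were tested on simulated data, and the offset on the comparison of ΔWAPL 3.3 alone, where a larger share of its calls was false than without it. Strand setting and annotation of the counting are not given in the sources used here.

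The text names the 8 members, WAPL and MAU2, for each pathway list the 2 genes with the lowest p among those tested, the marker genes, and the 3 genes most like each member. The markers beside the condensin results were chosen after their values were seen. Of the S phase list, 14 of 15 genes matched. Members and lists were chosen with earlier results of these data known. Replicate numbers paired control A with ΔSCC4, since same-numbered libraries deviated together (r = 0.675, 0.115 and 0.615 across genes, each over 0.1, though for replicate 2 another number gave 0.114), a pairing taken from the data and not from the labels; no other comparison met this in every pair.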

Additional observations from a re-analysis of the deposited data

Results flagged for a closer look

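The log2 fold change of NCAPD3 on WAPL loss differed between cells with and without SCC4. The interaction was 0.565 (SE 0.122, adjusted p = 0.00635 in edgeR's quasi-likelihood test). Without SCC4, the 3 double knockout libraries (235.7 to 247.1 CPM) lay above the 3 ΔSCC4 libraries (161.7 to 172.5 CPM). With SCC4, the ΔWAPL 3.3 libraries (224.2 to 235.4 CPM) overlapped control A (221.4 to 241.1 CPM).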

How the results depend on the processing

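Of the 10 comparisons, the count of members past the threshold stayed the same under every alternative run for the double knockout against control A (0), the double knockout against ΔSCC4 (2), the clone difference (0) and control B against control A (0), and no call reversed. For ΔWAPL 3.3 (0 members), 1 passed without a filter, in DESeq2, in the fit over all 18 libraries and with the GC-content offset (NCAPD2 each time), and the leave-one-out range was 0 to 1. Genes called were 1228 of 16221 without a filter, 1001 of 14648 in DESeq2 and 1753 of 12976 in the fit over all libraries. With the offset 12.9% were called, against 8.07% in the main fit. For ΔWAPL 1.14 (1), 0 passed in the fit over all libraries, and leaving out libraries gave 0 to 4. The fit over all libraries called 1788 of 12976 genes, against 20.1% in the main fit. Over both clones (1), leaving out libraries gave 1 to 2. For ΔSCC4 (1), 3 passed in the fit over all libraries, 2 with the GC-content offset, and 0 to 2 when libraries were left out. Calls among all genes rose too, to 2556 of 12976 in that fit and 20.7% with the offset, against 9.49% in the main fit. For the double knockout against ΔWAPL 3.3 (0), 1 passed with the offset (NCAPH2, -0.23, adjusted p = 0.0298) and 0 to 2 when libraries were left out. The offset called 20.2% of all genes there, against 10.6% in the main fit. For the interaction (1), 2 passed in the fit over all libraries, 4 with the offset, and 1 to 2 when libraries were left out, where NCAPG2 joined without control A replicate 1 or ΔSCC4 replicate 3. Among all genes, 2015 of 12976 passed in the fit over all libraries and 25.5% with the offset, against 11.3% in the main fit. The shares of all genes in the fits leaving out libraries are not given here. The causes of these changes in member counts were not tested. On data simulated for the comparison of ΔWAPL 3.3 alone, the offset gave a larger share of false calls than the fit without it. It was not simulated for the other comparisons. Calls gained under the offset (NCAPD2, NCAPG2 and NCAPH2) are therefore taken as less certain.

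With the replicate block, 6 members passed in ΔSCC4 cells, and 4 with the block and the GC-content offset. The pairing behind the block was taken from these same data, so its p-values may be too small. Over all genes the block raised the calls for ΔSCC4 from 1186 to 5754 of 12503. It changed no member's call in another comparison. With 3 libraries per group and 1 clone per WAPL genotype, differences between clones and effects of the knockout cannot be told apart within 1 clone.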
